A study of Mus musculus with 9 samples.

Results

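The genes described here are the mouse heat shock proteins and DnaJ co-chaperones, the protein-folding machinery that cells raise under stress. They were taken by symbol from the gene identifiers of the count files: names that begin with Hsp followed by a digit or by the letters a to e or h, and names of the Dnaja, Dnajb and Dnajc series. The rule leaves out Hspa5, Hspg2, Hspbap1 and pseudogenes. Of 53465 gene identifiers, 89 carried such a symbol, 15 of them were pseudogenes and 2 were excluded by name, which left 72 members, all annotated as protein coding. They comprised 13 genes of the HSP70 and HSP110 families, 3 of the HSP90 family, 2 of the mitochondrial chaperonin, 7 small heat shock proteins and 45 DnaJ genes (4 of class A, 13 of class B and 28 of class C). The other 2 genes, Hspb11 and Hspbp1, match by name but belong to none of these families.

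The study sequenced total RNA from the border of the infarct in mouse hearts, all of the immunodeficient NOD-SCID strain, in 3 groups of 3 libraries. The first group had sham surgery, the second had coronary artery ligation, which cuts off blood flow to part of the ventricle wall, and the third had the same ligation followed by transplantation of cells named FOXO3-GE-MPCs. All 3 groups share the NOD-SCID background, and no group received ligation with other cells, so the cells and the act of transplanting them cannot be told apart. The labels used here give no age, sex, time after ligation, cell dose or cell source. In 2 of the 3 libraries with cells (replicates 2 and 3) the source field names other FOXO genes, FOXO4 and FOXO5, while the title and treatment fields of all 3 name FOXO3. Nothing in the labels says that the libraries of a group come from separate animals, so p-values measure the spread between these libraries, which may be technical.

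Heat shock proteins bind unfolded or damaged proteins and help them to refold. HSP70 proteins work in cycles that DnaJ proteins start by delivering the client and stimulating ATP hydrolysis, HSP110 proteins exchange the nucleotide, HSP90 proteins finish the folding of kinases and steroid receptors, and small heat shock proteins hold unfolded clients and are abundant in heart muscle. Some members are made in most cells at all times, the cognate or constitutive forms, and others are raised within minutes of stress by heat shock factor 1, the inducible forms. Here 8 members were listed as inducible (Hspa1a, Hspa1b, Hsph1, Hspb1, Hsp90aa1, Dnajb1, Dnaja1 and Dnajb4) and 18 as constitutive, and the other 46 were not classed. These lists were chosen with earlier results of these data known. Counts and medians by class below are therefore a description and not an independent test of the classes.

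Libraries held between 4549268 and 7515052 counts on genes, the lowest and the highest both in the ligation group. Between 19.1% and 19.9% of gene counts fell on mitochondrially encoded genes in the sham libraries, between 12.6% and 13.9% in the ligation libraries and at 14.3% in each library with cells. The 7 cardiomyocyte genes listed summed to between 45608 and 47034 CPM (counts scaled to a common library size) in the sham libraries, 34843 and 36622 in the ligation libraries and 34040 and 34867 in those with cells. The lymphocyte list summed to between 0.426 and 2.77 CPM, none of its genes high enough to test. Sham replicates 1 and 2 carry 1 name stem in their file headers, as do ligation replicates 2 and 3. These pairs differed by more than counting noise and were kept apart, though this cannot show that they came from separate hearts. Levels below are CPM after TMM scaling, which sets the bulk of genes equal between libraries, and changes are log2 fold changes with their standard error (SE). A gene is said to have risen or fallen where edgeR's quasi-likelihood test gave a Benjamini-Hochberg adjusted p under 0.05 over the 13825 genes tested, written below as edgeR adjusted p. The 3 comparisons share libraries pairwise and are not independent of each other.

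Heat shock factors bind inverted repeats of the 5-base unit nGAAn, and the promoters of the members were searched for 2 adjoining units (GAANNTTC or TTCNNGAA) and for 3 (GAANNTTCNNGAA or TTCNNGAANNTTC) on both strands. Each 3-unit match holds 2 overlapping 2-unit matches. The windows ran from 250 bases before to 50 bases after each start site, from RefSeq on GRCm38.p6, the assembly of the mm10 build named in the submitters' processing notes, and 58 of the 72 members matched an entry. The 2-unit motif lay in 16 of these 58 members (27.6%), against 17% of the 27025 genes of the table. Among the inducible members it lay in 6 of 7 with an entry, all but Dnajb1, and among the constitutive members in 3 of 13. The 3-unit motif lay in 4 members, Hsph1, Dnajb6, Hspd1 and Hspe1, against 0.662% of all genes. The sequences below show the motif in capitals, 5′ to 3′ on the gene's strand, for the 6 inducible members with a match and for the 3 constitutive members that carry 3 units.
Hspa1b, 250 bases before the start (chr17:34959239-34959488, minus strand): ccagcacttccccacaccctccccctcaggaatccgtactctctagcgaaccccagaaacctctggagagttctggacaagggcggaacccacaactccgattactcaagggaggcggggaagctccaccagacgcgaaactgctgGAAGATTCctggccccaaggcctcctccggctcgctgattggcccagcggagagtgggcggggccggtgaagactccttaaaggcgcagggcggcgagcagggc
Hspa1a (chr17:34972242-34972271, minus strand): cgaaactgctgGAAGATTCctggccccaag
Hsph1 (chr5:149636280-149636309, minus strand): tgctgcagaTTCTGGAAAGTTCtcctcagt
Hspb1 (chr5:135887811-135887840, plus strand): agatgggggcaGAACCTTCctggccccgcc
Dnaja1 (chr4:40722333-40722362, plus strand): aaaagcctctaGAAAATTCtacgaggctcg
Dnajb4 (chr3:152193841-152193870, minus strand): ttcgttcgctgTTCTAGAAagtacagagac
Dnajb6 (chr5:29735843-29735872, plus strand): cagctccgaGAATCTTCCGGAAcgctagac
Hspd1 (chr1:55088051-55088080, minus strand): ggccttccgGAAGGTTCTAGAAcggaccgt
Hspe1 (chr1:55088050-55088079, plus strand): cacggtccgTTCTAGAACCTTCcggaaggc
Hspa1a and Hspa1b, neighbours on chromosome 17 that encode the same inducible HSP70, were identical at 247 of 250 bases before the start, and both carry the motif 104 bases upstream. Hspd1 and Hspe1 lie head to head on chromosome 1, and the 3-unit match printed for each is 1 stretch of genome read on opposite strands. A match is only a description of the letters in the window.

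Set per kilobase of exonic length, which allows levels of different genes to be compared, small heat shock proteins and cognate forms led in the sham hearts. The mean level was 914 CPM per kb for Hspb7, 438 for Hspb1, 418 for Hsp90ab1, 367 for Hspb6 and 315 for Hspa8. The inducible partners of Hsp90ab1 and Hspa8 were far lower on the same scale, at 44.2 CPM per kb for Hsp90aa1 and 2.73 for Hspa1b. The classes as a whole overlapped: Hspb1 is on the inducible list, and constitutive Hspa13 was at 2.72. The per-kb level of Hspa1b reached 16.5 in the hearts with cells. Other genes share 68.1% of the 31-base words of Hspa1b, 55.4% of those of Hspb1, 51.5% for Hsp90aa1 and 44.8% for Hspa8. How reads of shared sequence were counted is not given, so these levels, and ratios between such genes, are approximate.

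Hspa1b, Hspa1a, Dnajb1, Hsph1 and Dnaja1, 5 of the 8 inducible members, had the largest called rises of any member in ligated hearts with cells against ligation alone. Against sham, Dnaja4 and Hsp90aa1 also rose by more than Dnaja1. In cells against ligation, 18 of the 62 members tested rose and 0 fell, where 9.87% of all genes tested changed, 4.19% upwards and 5.69% downwards. By edgeR without adjustment, 24 members were higher and 1, Dnajc1, lower at p under 0.05 (beside 10.8% and 11.9% of all genes), and DESeq2 and limma-voom, like edgeR, called 0 members lower after adjustment. Of the 8 inducible members 7 rose, with a median log2 change of 0.67, and of the 18 constitutive members 5 rose, with a median of 0.08, beside a median of 0.00 over all genes tested. The count of constitutive members that rose was less firm: it was 3 by DESeq2, 6 by limma-voom, 3 with library totals, and 2 or 3 without any 1 of the 3 ligation libraries or without cells replicate 1 or 2.

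Ligation alone moved the members in both directions. Of the 62 tested, 18 rose (29%) and 11 fell (17.7%) against sham, beside 20.1% and 18.0% of all genes tested. The share that fell was thus near the background, and 46.8% were called in either direction beside 38.2% of all genes. With ligation 4 inducible members rose and 0 fell, by edgeR, by DESeq2 and by limma-voom alike, with 0 lower also at an unadjusted edgeR p under 0.05 (21.6% of all genes). Of the constitutive members 4 rose and 6 fell. With library totals 7 inducible and 9 constitutive members rose, where 35.9% of all genes were then called higher and 9.74% lower. With cells against sham, 32 members rose (51.6%) and 12 fell (19.4%), beside 21.0% and 20.0% of all genes. The share that fell was again near the background, and 71% of those tested were called beside 40.9% of all genes. All 8 inducible members rose with a median log2 change of 1.10. Scaling by library totals in place of TMM moved the median of all genes tested from 0.01 to 0.20 in ligation against sham and from -0.01 to 0.15 in cells against sham, and the split of members became 32 higher and 7 lower, and 39 higher and 6 lower, the second beside 33.4% and 12.3% of all genes. In cells against ligation that scaling gave 14 higher and 0 lower, beside 3.15% and 6.71%.

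Markers of cell types moved with ligation too, and their part in the members' changes was not tested. Of the 7 cardiomyocyte genes 1 (Ryr2) rose and 5 fell with ligation, with the lower sums given above, where 20.1% of all genes rose and 18.0% fell. Of the 5 fibroblast genes 4 (Col1a1, Col3a1, Dcn and Lum) rose and 1 (Pdgfra) fell, and their sum went from between 1924 and 1981 CPM in the sham libraries to between 3166 and 3260 in the ligation libraries and 3006 and 3088 in those with cells.

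**Figure D1:**
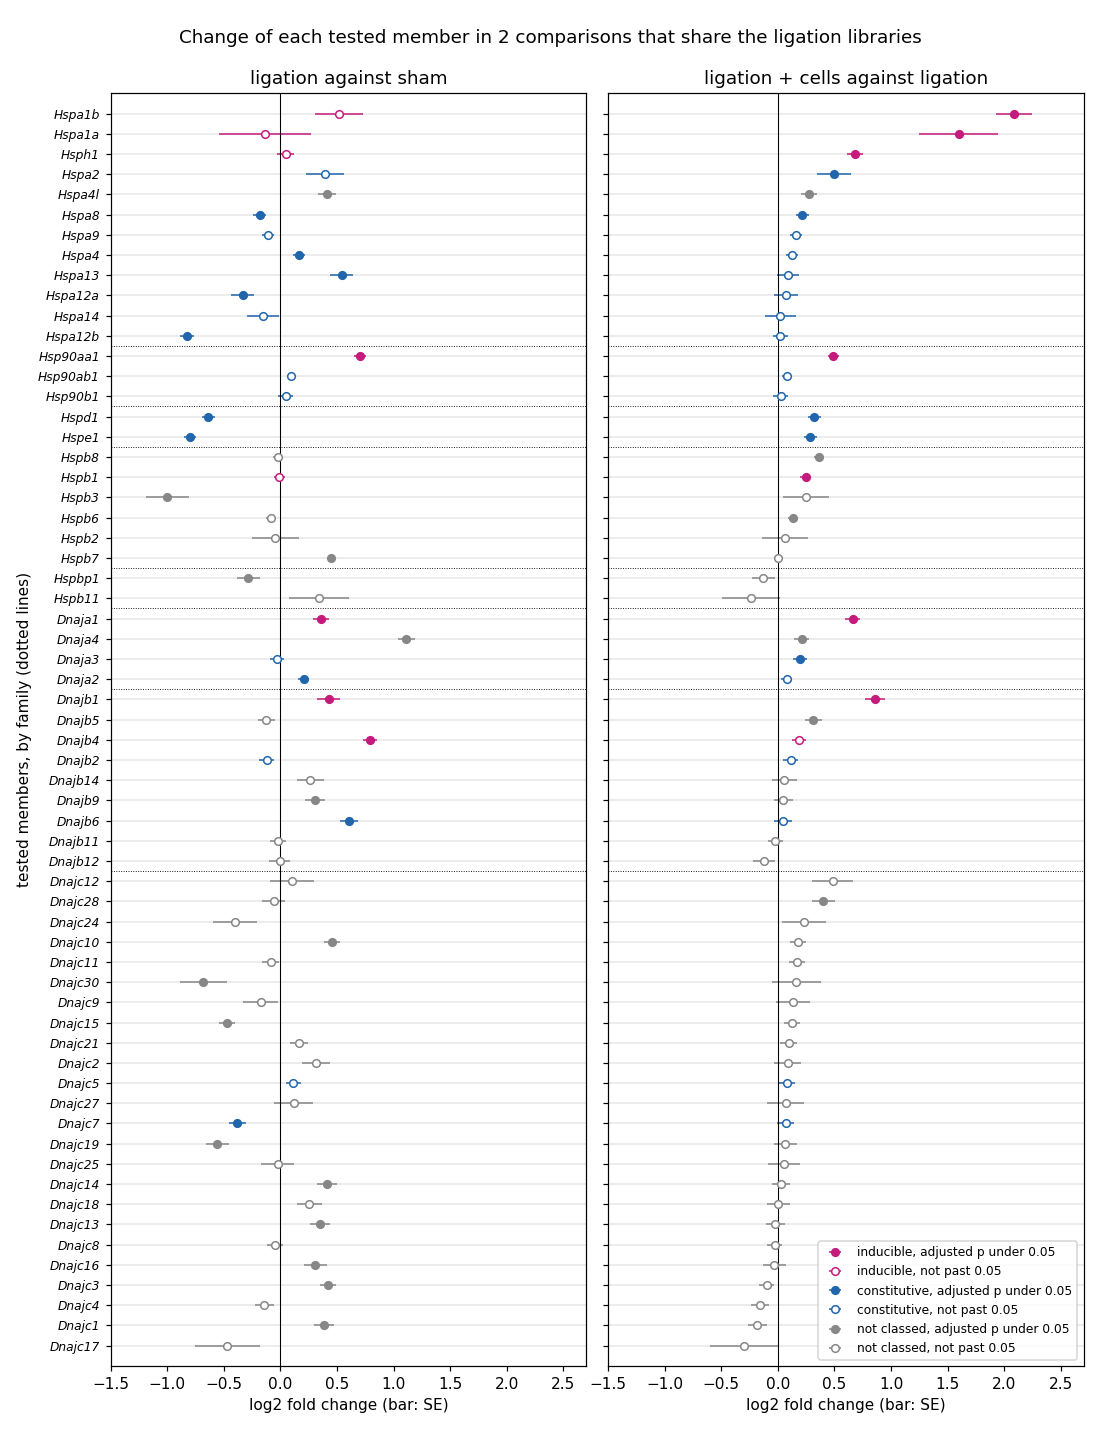
Log2 fold change with its SE (horizontal bar) of the 62 tested members, ordered by family, for ligation against sham (left) and ligation with cells against ligation (right); colours give the class, and filled points passed an edgeR adjusted p of 0.05. The right panel has filled points above 0 only, led by Hspa1b at 2.09, and the left panel has 18 filled points above and 11 below 0.

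Hspa1b and Hspa1a encode the strictly inducible HSP70, held at a low level in unstressed tissue. Hspa1b was at 11.0, 4.94 and 6.98 CPM in the sham libraries, 10.9, 10.1 and 11.5 in the ligation libraries and 45.2, 40.1 and 53.2 in the libraries with cells. Every library with cells lay above every other library, and the sham and ligation ranges overlapped. Hspa1b rose 4.25-fold with cells against ligation, a log2 change of 2.09 ± 0.16 (SE), edgeR adjusted p = 1.63e-08, and by 2.60 ± 0.18 (SE), edgeR adjusted p = 2.02e-10, against sham. For ligation against sham its log2 change was 0.52 ± 0.21 (SE), edgeR adjusted p = 0.0627, which did not pass. The call of that last value turned on single settings: without sham replicate 1 it was 0.86 with an edgeR adjusted p of 0.00324, without sham replicate 2 it was 0.28 (0.317), over all 19 alternatives the adjusted p ran from 0.00324 to 0.317, and 5 of them passed.

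Hspa1a was at 1.25, 4.78 and 1.75 CPM in the sham libraries, 2.98, 2.60 and 1.75 in the ligation libraries and 6.38, 7.91 and 7.35 in the libraries with cells. It rose with cells against ligation by 1.60 ± 0.35 (SE), edgeR adjusted p = 0.00405, and the 3 libraries with cells again lay above the other 6. Against sham the rise was 1.46 ± 0.34 (SE), edgeR adjusted p = 0.00183, and 2.24 without sham replicate 2. Ligation against sham gave -0.13 ± 0.41 (SE), edgeR adjusted p = 0.827, with no call, and turned positive with library totals (0.05), with limma-voom (0.04), and without sham replicate 2 (0.65) or ligation replicate 3 (0.07). Other genes share 70.1% of the 31-base words of Hspa1a and 68.1% of those of Hspa1b, and each copy shares most with the other. The split of reads between them is therefore uncertain, and their sum is given as well. How reads that fit both copies were counted is not given, so the sum may be incomplete. Exons of Hspa1a also overlap Gm20481 on the opposite strand over 19% of their length. Summed, the pair stood at 12.3, 9.72 and 8.73 CPM in the sham libraries, 13.8, 12.7 and 13.2 in the ligation libraries and 51.6, 48.0 and 60.5 in the libraries with cells. The mean of the sum was 10.2 ± 1.83 (SD, n = 3), 13.3 ± 0.559 and 53.4 ± 6.43 CPM.

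Hsph1, an HSP110 protein that exchanges nucleotide on HSP70, was at 56.1, 58.3 and 58.4 CPM in the sham libraries, 66.7, 57.2 and 56.0 in the ligation libraries and 92.8, 99.6 and 94.4 in the libraries with cells. The libraries with cells stood clear of the other groups, which overlapped each other. It rose with cells against ligation by 0.68 ± 0.07 (SE), edgeR adjusted p = 9.84e-07. Ligation against sham gave 0.05 ± 0.07 (SE), edgeR adjusted p = 0.664, with no call, and 0.23 with library totals (adjusted p from 0.0122 to 0.837 over the 19 alternatives).

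Hsp90aa1, the stress-inducible cytosolic HSP90, was at 177, 166 and 178 CPM in the sham libraries, 288, 267 and 294 in the ligation libraries and 381, 412 and 399 in the libraries with cells. Its 3 groups did not overlap at any point and stood in the order sham, ligation, ligation with cells. It rose with ligation by 0.70 ± 0.05 (SE), edgeR adjusted p = 1.62e-09, and rose further with cells against ligation by 0.49 ± 0.05 (SE), edgeR adjusted p = 1.4e-06. Other genes share 51.5% of its 31-base words, and the one that shares most, Gm12346, stood between 1.59 and 6.34 CPM.

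The inducible DnaJ partners of HSP70 were also higher in each successive group. Dnajb1, the main HSP70 co-chaperone of the heat shock response, was at 21.4, 22.4 and 21.7 CPM in the sham libraries, 30.7, 30.4 and 27.5 in the ligation libraries and 57.2, 47.6 and 55.3 in the libraries with cells. It rose with ligation by 0.43 ± 0.10 (SE), edgeR adjusted p = 0.00217, and with cells against ligation by 0.86 ± 0.09 (SE), edgeR adjusted p = 1.07e-06. Dnaja1, a class A partner that handles refolding and protein import, was at 83.5, 97.9 and 87.3 CPM in the sham libraries, 125, 109.8 and 111 in the ligation libraries and 175, 188 and 181 in the libraries with cells. Its rise was 0.36 ± 0.07 (SE), edgeR adjusted p = 0.000378, with ligation (0.55 with library totals) and 0.66 ± 0.07 (SE), edgeR adjusted p = 7.63e-07, with cells. For both genes the 3 groups did not overlap.

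Dnajb4, a class B protein abundant in muscle, was at 85.1, 77.4 and 88.3 CPM in the sham libraries, 150.0, 149 and 136 in the ligation libraries and 166, 160.2 and 168 in the libraries with cells. Its larger step came with ligation, 0.79 ± 0.06 (SE), edgeR adjusted p = 3.65e-09, and the step with cells against ligation was 0.19 ± 0.06 (SE), edgeR adjusted p = 0.0578, which did not pass although the ranges were apart. That adjusted p ran from 0.0304 to 0.243 over the 19 alternatives, 3 of which passed, among them the fit without sham replicate 2 (0.0326). Hspb1, the small heat shock protein HSP25 that guards actin filaments, was at 442, 477 and 435 CPM in the sham libraries, 442, 439.9 and 462 in the ligation libraries and 554, 505 and 539 in the libraries with cells. Hspb1 rose with cells against ligation by 0.25 ± 0.05 (SE), edgeR adjusted p = 0.00176, the smallest change among the 7 inducible members that rose. Ligation against sham gave -0.01 ± 0.05 (SE), edgeR adjusted p = 0.902, and 0.18 in place of this with library totals (adjusted p from 0.00701 to 1 over the 19 alternatives).

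**Figure D2:**
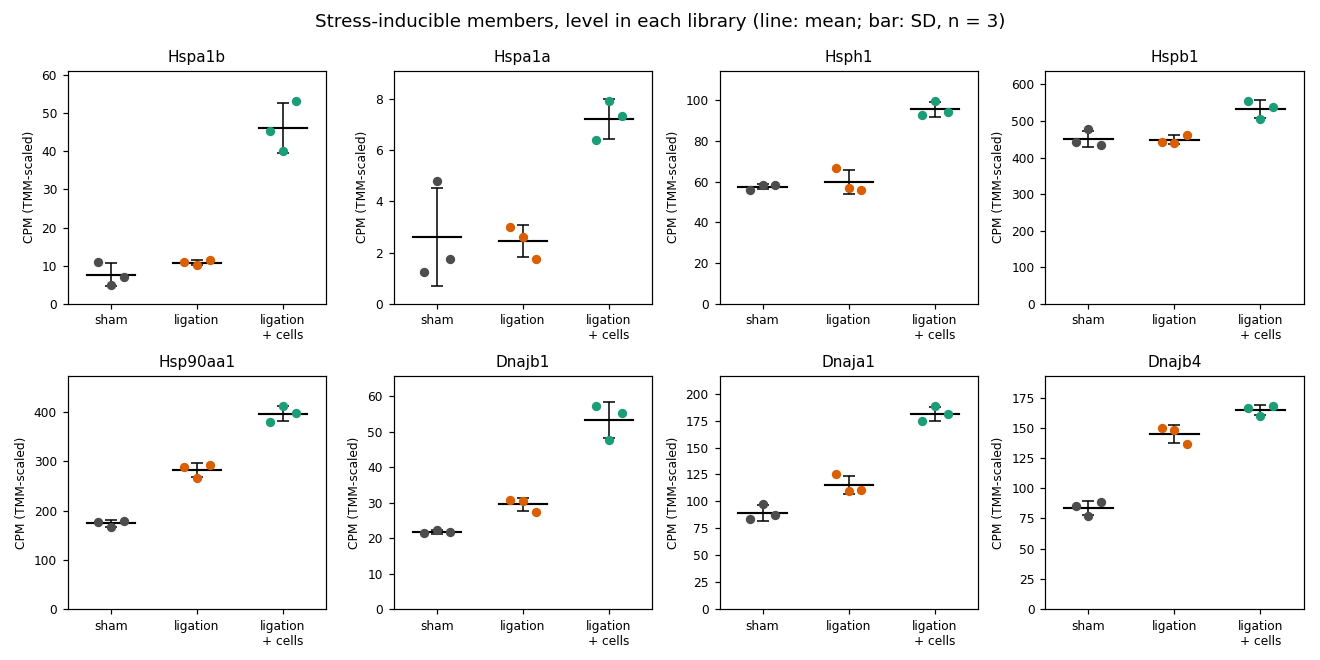
Level of the 8 inducible members in each library (points, TMM-scaled CPM on linear axes from 0) with the group mean (line) and SD (bar, n = 3). In all 8 panels every library with cells lies above every ligation library, as for Hspa1b with 40.1 to 53.2 against 10.1 to 11.5 CPM.

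Ranges of CPM were apart between cells and ligation in all 8 inducible members, beside 27.2% of all genes tested, and in 4 of 8 between ligation and sham, beside 47.6%. The 8 members summed to between 877 and 909 CPM in the sham libraries, 1065 and 1116 in the ligation libraries and 1460 and 1497 in those with cells. The 18 constitutive members summed to between 4935 and 4974, 4582 and 4707, and 5015 and 5255 CPM in the same groups.

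Other gene lists moved along with the inducible members, and their part in the result was not tested. All 8 immediate-early genes listed (Fos, Fosb, Jun, Junb, Egr1, Atf3, Ier2 and Dusp1), which respond within minutes to many stimuli, rose with cells against ligation, where 4.19% of all genes rose and 5.69% fell. They summed to between 258 and 277 CPM in the sham libraries, 286 and 309 in the ligation libraries and 580 and 584 in those with cells. All 5 macrophage markers fell with cells against ligation, from a sum of 794 to 839 CPM to one of 328 to 343, with 413 to 445 in sham. All 4 erythroid genes fell as well, from between 1496 and 1595 CPM to between 663 and 679, with 860 to 912 in sham. With ligation against sham, 4 of the 5 macrophage markers and all 4 erythroid genes rose, beside 20.1% of all genes. Of the 7 fast skeletal muscle genes listed 4 were high enough to test, and 3 of these (Pvalb, Tnnt3 and Tnni2) fell with cells against ligation. That list summed to between 3.74 and 7.25 CPM in the sham libraries, 11.0 and 15.3 in the ligation libraries and 1.99 and 3.89 in those with cells, and 2 of its genes (Pvalb and Tnnt3) rose with ligation. Of the 7 cardiomyocyte genes 1 rose and 1 fell with cells against ligation.

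**Figure D3:**
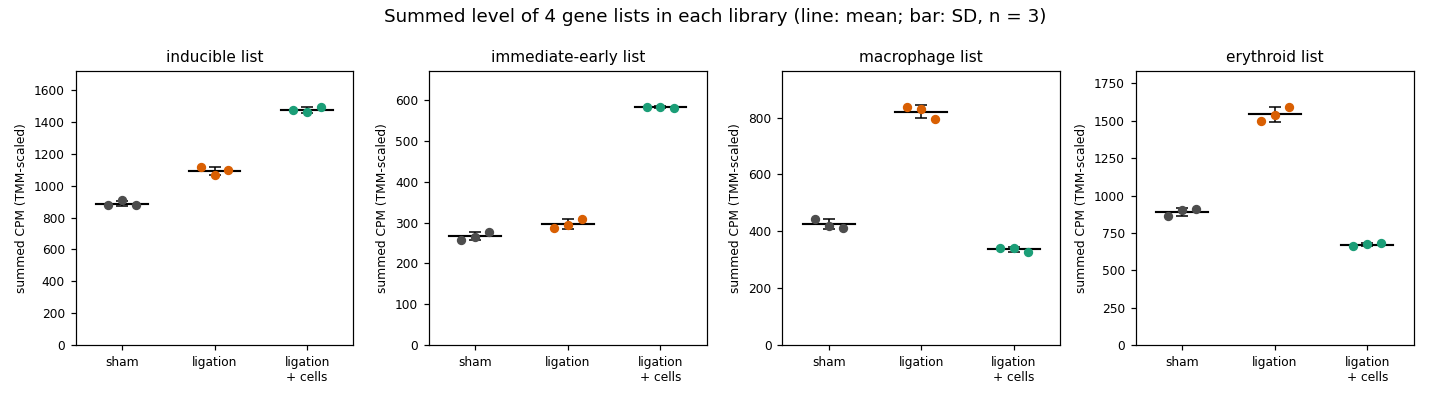
Summed TMM-scaled CPM of the 8 inducible members, 8 immediate-early genes, 5 macrophage markers and 4 erythroid genes in each library (points, linear axes from 0), with the group mean (line) and SD (bar, n = 3). The inducible and immediate-early sums are highest in the libraries with cells, and the macrophage and erythroid sums are highest after ligation alone.

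Ratios of counts within a library do not depend on the scaling, and set each inducible gene against its constitutive partner; they were taken as a description, without a test. Hspa1a plus Hspa1b came to 0.892%, 0.724% and 0.651% of Hspa8 in the sham libraries, 1.19%, 1.10% and 1.05% in the ligation libraries, and 4.04%, 3.08% and 4.58% in the libraries with cells. Hsp90aa1 came to 13.9% ± 0.964 (SD, n = 3) of Hsp90ab1 in the sham hearts, 21.1% ± 1.21 after ligation and 28.1% ± 1.77 with cells. Neither ratio overlapped between any groups. The ratio of Dnajb1 to Dnajb6 behaved otherwise, with 41.9% ± 2.53, 37.4% ± 4.19 and 64.7% ± 5.40: sham and ligation overlapped, and the libraries with cells stood above both. The partners moved too: Dnajb6 rose with ligation by 0.61 on the log2 scale, more than Dnajb1 did, and Hspa8 fell. A ratio therefore does not show the change of the inducible gene alone.

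**Figure D4:**
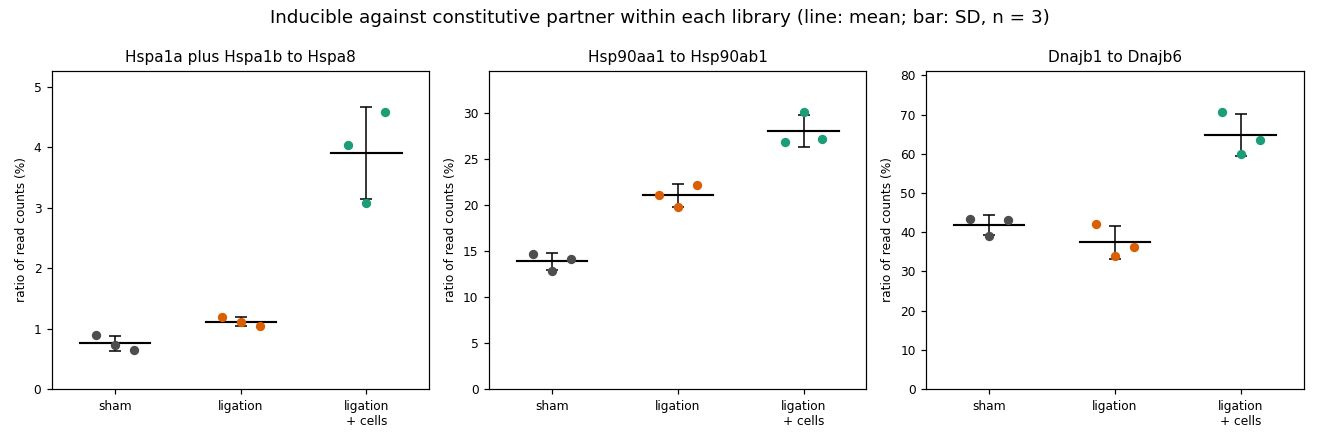
Read counts of an inducible member as a percentage of a constitutive partner in each library (points), with the group mean (line) and SD (bar, n = 3). The mean HSP70 ratio is 0.756%, 1.12% and 3.90% in sham, ligation and ligation with cells, and the HSP90 ratio is 13.9%, 21.1% and 28.1%.

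Hspa8, the cognate HSP70 of the cytosol, was at 1376, 1343 and 1342 CPM in the sham libraries, 1159, 1154 and 1265 in the ligation libraries and 1278, 1556 and 1322 in the libraries with cells. It fell with ligation by 0.18 on the log2 scale (SE 0.06, edgeR adjusted p = 0.0134), which became 0.01 with library totals, and rose with cells against ligation by 0.22 ± 0.06 (SE), edgeR adjusted p = 0.0154. Replicate 2 of the libraries with cells stood above the other 8, and the lowest library with cells was just above the highest ligation library (1278 against 1265). The fall lost its call without ligation replicate 2 (adjusted p 0.0709) and by DESeq2 (0.0633), with a range from 5.67e-05 to 0.943 over the 19 alternatives. The rise lost it without ligation replicate 1, ligation replicate 2 or cells replicate 2 (0.0552 to 0.110, with a log2 change of 0.12 in the last) and by DESeq2 (0.0854), with a range from 1.23e-06 to 0.110.

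Hsp90ab1, the constitutive cytosolic HSP90, was at 1204, 1295 and 1264 CPM in the sham libraries, 1361, 1344 and 1319 in the ligation libraries and 1417, 1367 and 1466 in the libraries with cells. Neither single step passed, with 0.10 ± 0.04 (SE), edgeR adjusted p = 0.0536, for ligation against sham and 0.08 ± 0.04 (SE), edgeR adjusted p = 0.233, for cells against ligation. Cells against sham gave a rise of 0.18 ± 0.04 (SE), edgeR adjusted p = 0.00101 (0.33 with library totals). The first value passed in 6 of 19 alternatives, among them the fits without sham replicate 2 and without cells replicate 2 (adjusted p 0.0353 to 0.0410, range over the 19 from 4.18e-06 to 0.226). Hsp90b1, the HSP90 of the endoplasmic reticulum, did not pass in any comparison, with log2 changes of 0.05 after ligation, 0.02 for the step from ligation to cells and 0.07 for cells set against sham. With library totals the first became 0.23 (edgeR adjusted p = 0.00349) and the last 0.23 (edgeR adjusted p = 0.00382), and both then passed.

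Hspa4, an HSP110 protein of the cytosol, rose with ligation by 0.16 ± 0.05 (SE), edgeR adjusted p = 0.0211 (0.35 with library totals), and was not called with cells against ligation (0.12 ± 0.05 (SE), edgeR adjusted p = 0.17). Its rise with ligation lost the call without sham replicate 2, ligation replicate 1 or ligation replicate 3 (0.0605 to 0.0706, range over the 19 alternatives from 1.68e-05 to 0.0735). Hspa13, a microsomal HSP70 relative, was at 18.7, 18.3 and 18.7 CPM in the sham libraries, 27.1, 25.3 and 28.6 in the ligation libraries and 28.2, 28.2 and 29.8 in the libraries with cells. It rose with ligation by 0.54 ± 0.10 (SE), edgeR adjusted p = 0.000284, and cells against ligation gave 0.09 ± 0.10 (SE), edgeR adjusted p = 0.651. Hspa2, best known from the testis, was at 7.30, 10.4 and 8.10 CPM in the sham libraries, 11.3, 11.6 and 11.1 in the ligation libraries and 16.2, 17.8 and 14.1 in the libraries with cells. Its rise with cells against ligation, 0.50 ± 0.15 (SE), edgeR adjusted p = 0.0385, passed in 11 of 19 alternatives (0.0280 to 0.147), and lost its call without any 1 of the 3 ligation libraries or without cells replicate 1 or 2.

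Hspa12b, a distant HSP70 relative of endothelial cells, was at 131, 142 and 132 CPM in the sham libraries, 72.0, 78.6 and 77.1 in the ligation libraries and 74.5, 81.8 and 75.6 in the libraries with cells. It fell with ligation by 0.83 on the log2 scale (SE 0.06, edgeR adjusted p = 2.17e-09) and was not called with cells against ligation (0.02 ± 0.07 (SE), edgeR adjusted p = 0.882). All 5 endothelial markers listed fell with ligation as well (18.0% of all genes did), and 2 of them, Kdr and Tek, rose with cells against ligation (4.19% of all genes did). The list summed to between 1675 and 1769 CPM in the sham libraries, 1105 and 1162 in the ligation libraries and 1201 and 1233 in those with cells, and its part in the result was not tested. In bulk tissue, fewer cells of a type and less RNA per cell cannot be told apart.

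Both mitochondrial chaperonin genes changed in all 3 comparisons. Hspd1, the HSP60 barrel of the mitochondrial matrix, was at 345, 328 and 345 CPM in the sham libraries, 238, 215 and 202 in the ligation libraries and 285, 262 and 271 in the libraries with cells. Hspe1, its HSP10 lid, was at 233, 222 and 224 CPM in the sham libraries, 133, 134 and 124 in the ligation libraries and 155, 166 and 155 in the libraries with cells. Each gene had 3 groups that did not overlap, lowest after ligation and intermediate with cells. Other genes share 53.1% of the 31-base words of Hspd1. The one that shares most, the pseudogene Hspd1-ps3, stood between 5.67 and 30.1 CPM. Hspd1 fell with ligation by 0.64 on the log2 scale (SE 0.06, edgeR adjusted p = 2.11e-08) and Hspe1 by 0.80 (SE 0.06, edgeR adjusted p = 3.99e-10). With cells against ligation Hspd1 rose by 0.32 ± 0.06 (SE), edgeR adjusted p = 0.000794, and Hspe1 by 0.29 ± 0.06 (SE), edgeR adjusted p = 0.00156. Both were below sham in the hearts with cells, Hspd1 by a log2 change of -0.32 ± 0.06 (SE), edgeR adjusted p = 0.000147 (-0.16 with library totals), and Hspe1 by -0.51 ± 0.05 (SE), edgeR adjusted p = 2.21e-07. The share of counts on mitochondrially encoded genes, given above, was also highest in sham and lowest after ligation, and its part was not tested.

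Hspa9, the mitochondrial HSP70 that draws imported proteins into the matrix, was at 589.8, 583 and 550.2 CPM in the sham libraries, 576, 531 and 492 in the ligation libraries and 590.1, 602 and 591 in the libraries with cells, with overlapping sham and ligation ranges. It was not called in either step: -0.11 ± 0.05 (SE), edgeR adjusted p = 0.0996, with ligation (0.08 with library totals) and 0.16 ± 0.05 (SE), edgeR adjusted p = 0.0529, with cells. Both values passed without ligation replicate 1 (adjusted p 0.0104 and 0.00652) and by limma-voom (0.0469 and 0.0173). The first passed in 3 of the 19 alternatives (0.0104 to 0.296), and the second in 7 (0.00652 to 0.253), DESeq2 (0.0261) among them. With library totals, cells against sham passed as well (0.21, edgeR adjusted p = 0.00109). Dnajc19, a DnaJ protein of the mitochondrial import motor, was at 79.0, 70.3 and 77.6 CPM in the sham libraries, 61.8, 51.7 and 43.1 in the ligation libraries and 55.7, 56.6 and 49.4 in the libraries with cells. It fell with ligation, with a log2 change of -0.56 (SE 0.10, edgeR adjusted p = 0.000121; -0.37 with library totals), and gave 0.07 with cells against ligation, with no call. Dnaja3, the matrix DnaJ partner of Hspa9, was not called with ligation (-0.03 ± 0.06) and rose with cells against ligation by 0.19 ± 0.06 (SE), edgeR adjusted p = 0.0464. That call held in 6 of 19 alternatives (0.0251 to 0.179), was lost by DESeq2 (0.0607) and was lost without any 1 library other than sham replicate 2. With library totals its ligation value became 0.16 (edgeR adjusted p = 0.0436), which passed.

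The small heat shock proteins, of which 6 of 7 were tested, split by gene. Hspb7, the cardiovascular member that binds the sarcomere protein filamin C, was at 2499, 2606 and 2484 CPM in the sham libraries, 3329.5, 3514 and 3503 in the ligation libraries and 3497, 3335 and 3516 in the libraries with cells. It rose with ligation by 0.45 ± 0.03 (SE), edgeR adjusted p = 1.19e-09, and its ligation and cells libraries overlapped, with 0.00 ± 0.03 (SE), edgeR adjusted p = 0.999. Hspb8, which acts with Bag3 in the removal of damaged filaments, was at 506, 528 and 489 CPM in the sham libraries, 509, 499.6 and 494 in the ligation libraries and 644, 632 and 661 in the libraries with cells. Ligation gave -0.02 ± 0.04 (SE), edgeR adjusted p = 0.762 (0.17 with library totals; range of adjusted p over the 19 alternatives 0.00307 to 0.936), and cells against ligation a rise of 0.37 ± 0.04 (SE), edgeR adjusted p = 5.42e-06.

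Hspb6, the HSP20 of heart and smooth muscle, was at 812, 858 and 859 CPM in the sham libraries, 779.6, 810.0 and 793 in the ligation libraries and 879, 849 and 879 in the libraries with cells. Its rise with cells against ligation was small, 0.13 ± 0.04 (SE), edgeR adjusted p = 0.0414, and passed in 11 of 19 alternatives (0.0144 to 0.136). It lost the call without any 1 ligation library and without cells replicate 1 or 3. Hspb3, a muscle member, was low, at 12.3, 10.5 and 11.3 CPM in the sham libraries, 7.03, 5.79 and 4.62 in the ligation libraries and 7.09, 6.52 and 6.63 in the libraries with cells. It fell with ligation, with a log2 change of -0.997 ± 0.19 (SE), edgeR adjusted p = 0.00033, and cells against ligation gave 0.25 ± 0.20 (SE), edgeR adjusted p = 0.52. Hspb2 stayed between 12.5 and 25.2 CPM with no call in any comparison. Its exons overlap those of Cryab on the opposite strand over 30.2% of their length, and Cryab stood between 1232 and 1821 CPM, so reads of the pair may not have been told apart.

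**Figure D5:**
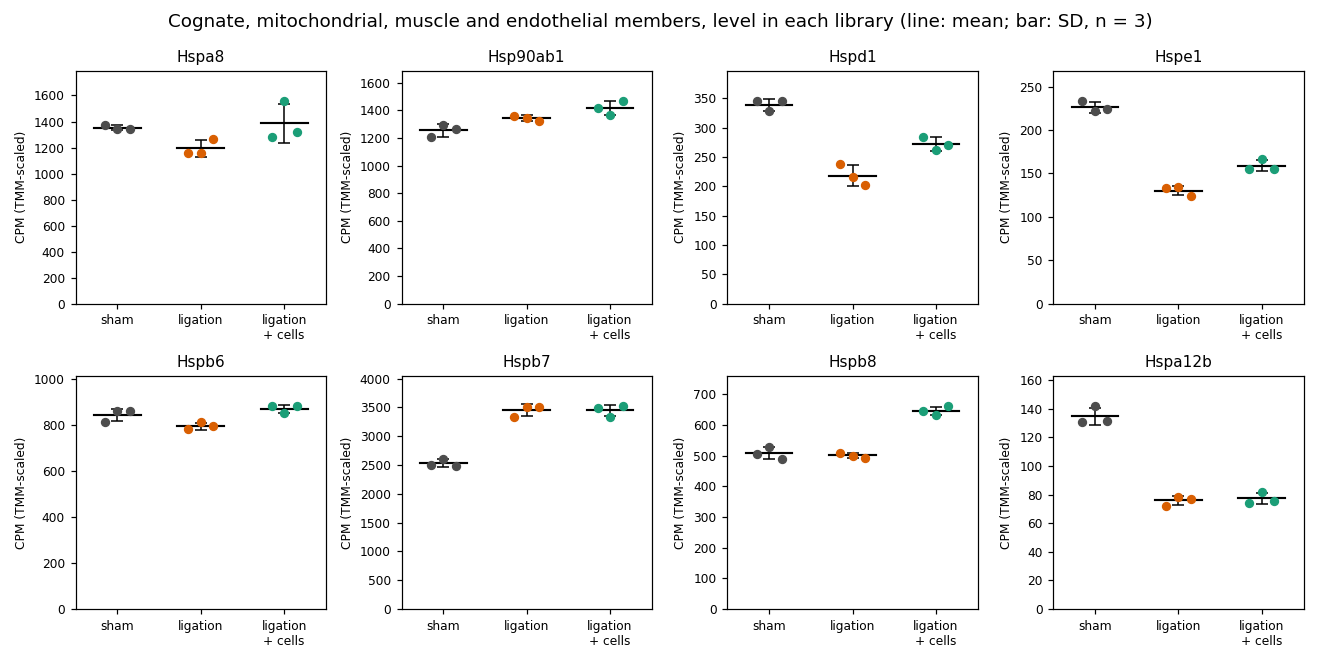
Level of 8 cognate, mitochondrial, small and endothelial members in each library (points, TMM-scaled CPM on linear axes from 0) with the group mean (line) and SD (bar, n = 3). Hspd1 and Hspe1 are lowest after ligation and intermediate with cells, Hspb7 is higher in both ligation groups, and Hspb8 is highest in the libraries with cells (632 to 661 CPM).

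Of the 4 class A DnaJ genes, 3 rose with ligation (75%, beside 20.1% of all genes tested) and 3 with cells against ligation (75%, beside 4.19%). The second count fell to 1, Dnaja1, by DESeq2, with library totals, with no low-count filter, with the replicate block, with header stems summed, and without any 1 library other than sham replicate 2. Of the 9 class B genes tested, 4 rose with ligation (44.4%) and 2 with cells against ligation (22.2%). The count of class A and B members that fell was 0 in both comparisons by edgeR, DESeq2 and limma-voom, and 0 also at an unadjusted edgeR p under 0.05. Of all genes tested, 18.0% fell with ligation and 5.69% with cells against ligation (21.6% and 11.9% unadjusted). For cells against ligation the count of 0 is therefore near the background. Of the 24 class C genes tested, 6 rose and 4 fell with ligation, 41.7% beside 38.2% of all genes and so near the background. With library totals 10 of them rose, beside 35.9% of all genes and so again near the background. With cells against ligation 1 of them, Dnajc28, rose, 4.17% beside 4.19% of all genes, and it was 0 without ligation replicate 3 or cells replicate 2 and 2 without ligation replicate 2. Dnaja4, a class A co-chaperone with a role in sterol metabolism, had the largest rise of any member with ligation: it was at 36.3, 35.6 and 37.3 CPM in the sham libraries, 80.3, 78.9 and 77.2 in the ligation libraries and 88.1, 98.8 and 86.4 in the libraries with cells. That rise was 1.11 ± 0.07 (SE), edgeR adjusted p = 1.69e-10. With cells against ligation its change was 0.21 ± 0.07 (SE), edgeR adjusted p = 0.0461, a call that held in 5 of 19 alternatives (0.0402 to 0.235) and was lost in every fit without 1 library except that without sham replicate 2. Its exons overlap Wdr61 on the opposite strand over 44.1% of their length.

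Dnajb6, a class B suppressor of protein aggregation, was at 49.1, 57.5 and 50.3 CPM in the sham libraries, 72.9, 89.3 and 76.1 in the ligation libraries and 81.0, 79.3 and 87.0 in the libraries with cells. It rose with ligation by 0.61 ± 0.08 (SE), edgeR adjusted p = 6.7e-06, and showed 0.05 ± 0.08 (SE), edgeR adjusted p = 0.769, with cells against ligation. Dnajc10, a disulfide reductase of the endoplasmic reticulum, was at 69.4, 63.9 and 68.9 CPM in the sham libraries, 92.9, 90.9 and 93.9 in the ligation libraries and 96.5, 116 and 102 in the libraries with cells. It rose with ligation by 0.46 ± 0.07 (SE), edgeR adjusted p = 3.56e-05, and cells against ligation gave 0.18 ± 0.07 (SE), edgeR adjusted p = 0.113.

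Dnajc30, a mitochondrial protein, was at 15.8, 15.5 and 13.5 CPM in the sham libraries, 11.7, 9.41 and 7.50 in the ligation libraries and 11.5, 13.2 and 6.48 in the libraries with cells. Its fall with ligation was 0.68 on the log2 scale (SE 0.21, edgeR adjusted p = 0.0146), lost with library totals (0.0598) and without ligation replicate 3 (0.0849, range over the 19 alternatives 0.00103 to 0.0849). Dnajc17, which is linked to RNA splicing, was at 6.59, 5.60 and 5.71 CPM in the sham libraries, 2.56, 4.34 and 5.50 in the ligation libraries and 4.40, 2.22 and 3.89 in the libraries with cells. With cells against sham it fell by 0.77 on the log2 scale (SE 0.29, edgeR adjusted p = 0.0419), and 9 of 19 alternatives passed (0.0269 to 0.179). In the same comparison Dnajc30 fell by 0.52 (SE 0.20, edgeR adjusted p = 0.048), with 10 of 19 passing (0.0106 to 0.249). Both calls were lost without any 1 of the 3 sham libraries, without ligation replicate 2 and without cells replicate 3, and also without cells replicate 2 for Dnajc17 and cells replicate 1 for Dnajc30. Without cells replicate 3 the Dnajc30 value was -0.27.

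Of the 18 members that rose with cells against ligation, Hspa4l, Dnajb5, Dnajc28 and Dnaja3 were named after their values were seen. Hspa4l, an HSP110 relative, gave 0.27 ± 0.07 (SE), edgeR adjusted p = 0.0178, lost without ligation replicate 3 or cells replicate 1 (0.0851 to 0.113, range over the 19 alternatives 0.0122 to 0.113). Dnajb5, a class B relative of Dnajb1 and Dnajb4, gave 0.31 ± 0.07 (SE), edgeR adjusted p = 0.00726. Dnajc28 gave 0.40 ± 0.10 (SE), edgeR adjusted p = 0.0106, lost without ligation replicate 3 or cells replicate 2 (0.0541 to 0.0666, range over the 19 alternatives 0.00545 to 0.0666). With ligation against sham, the 8 members that rose and whose ligation change is not given above had log2 changes between 0.21 and 0.42, and the 4 that fell had changes between -0.47 and -0.29. The 44 members not called with cells against ligation had log2 changes between -0.30 and 0.49.

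The other 10 of the 72 members were too low to test: Dnajb3, Dnajb7, Dnajb8, Dnajb13, Dnajc5b, Dnajc5g, Dnajc6, Dnajc22, Hspa1l and Hspb9. None of them held more than 15 counts in a library. Hspa1l, the testis form of HSP70 next to Hspa1a, had the most, between 4 and 15 counts. A count of 0 allows up to 3 counts, which is 0.375 to 0.639 CPM in these libraries and covers counting error only.

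The factors and helpers that act with the members were read from lists outside the symbol rule. Hsf1, the factor that drives the heat shock genes, was at 38.8, 49.8 and 44.6 CPM in the sham libraries, 34.1, 38.2 and 37.8 in the ligation libraries and 34.9, 33.0 and 33.4 in the libraries with cells. It fell with ligation, with a log2 change of -0.27 (SE 0.09, edgeR adjusted p = 0.0261), which became -0.08 with library totals, and the call was lost without sham replicate 2, sham replicate 3 or ligation replicate 1 (0.0606 to 0.180, range over the 19 alternatives 0.00533 to 0.522). With cells against ligation its change was -0.13 ± 0.09 (SE), edgeR adjusted p = 0.472. Hsf2, a second factor, was not called in any comparison (0.01, 0.10 and 0.11). By edgeR, DESeq2 and limma-voom alike 0 of the 3 heat shock factors were called with cells against ligation, and 0 passed an unadjusted edgeR p under 0.05. As 9.87% of all genes were called there, a count of 0 among 3 is near the background.

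Of 11 HSP70 co-chaperones, 1 of which (Hspbp1) is also a member, 1 rose and 4 fell with ligation, 45.5% beside 38.2% of all genes tested and so near the background. With library totals 3 rose and 1 fell with ligation (beside 35.9% and 9.74%), and the count that fell was 2 without sham replicate 2 and 1 without ligation replicate 1. With cells against ligation 2 rose (18.2%, beside 4.19% of all genes higher), 2 by DESeq2 and 4 by limma-voom. Those 2 by edgeR were Stip1, which bridges HSP70 and HSP90, and Bag3, a nucleotide exchange factor of heart muscle. Stip1 was at 119, 130.2 and 122 CPM in the sham libraries, 103, 109 and 113 in the ligation libraries and 131, 140.2 and 143 in the libraries with cells. It rose with cells against ligation by 0.35 ± 0.06 (SE), edgeR adjusted p = 0.000637. Bag3 was at 208, 198 and 207 CPM in the sham libraries, 224, 235 and 222 in the ligation libraries and 251, 268 and 246 in the libraries with cells. Its rise was 0.17 ± 0.05 (SE), edgeR adjusted p = 0.043, which passed in 8 of 19 alternatives (0.0255 to 0.194) and was lost in the fits without 1 library, except those without sham replicate 2 or 3.

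Of 11 HSP90 co-chaperones, 1 rose and 6 fell with ligation (63.6%, beside 38.2% of all genes), and 4 rose and 1 fell with cells against ligation (45.5%, beside 9.87%). With library totals 3 rose with ligation (beside 35.9%). The 4 became 2 with library totals (beside 3.15%) and without ligation replicate 3, cells replicate 1 or cells replicate 2. Among the genes called with TMM scaling, Fkbp5 alone stood against the rest in both comparisons. Fkbp5 is a co-chaperone of steroid receptors that glucocorticoids are known to raise. It was at 35.4, 45.1 and 48.6 CPM in the sham libraries, 107, 95.8 and 112 in the ligation libraries and 46.9, 49.9 and 49.0 in the libraries with cells. Fkbp5 rose with ligation by 1.28 ± 0.09 (SE), edgeR adjusted p = 4.92e-10, and fell with cells against ligation by 1.11 on the log2 scale (SE 0.09, edgeR adjusted p = 2.06e-08). Unc45b, the myosin chaperone of striated muscle, fell with ligation by 0.61 (SE 0.06, edgeR adjusted p = 9.1e-08).

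Of the 8 subunits of TRiC, the cytosolic chaperonin that folds actin and tubulin, 5 fell with ligation (62.5%, beside 18.0% of all genes lower). That count was 1 with library totals (beside 9.74%), and 3 with no low-count filter and without sham replicate 3 or ligation replicate 2. With cells against ligation 0 were called by edgeR, DESeq2 or limma-voom, near the 9.87% of all genes, 2 were higher at an unadjusted edgeR p under 0.05 (beside 10.8%), and 1 was called higher without ligation replicate 1. Cryab, the alpha B crystallin of heart muscle and a close relative of the small heat shock proteins, was at 1821, 1803 and 1742 CPM in the sham libraries, 1234, 1242 and 1232 in the ligation libraries and 1349, 1372 and 1331 in the libraries with cells. It fell with ligation, with a log2 change of -0.53 (SE 0.03, edgeR adjusted p = 1.18e-10; -0.35 with library totals), and rose with cells against ligation by 0.13 ± 0.03 (SE), edgeR adjusted p = 0.0193. That rise lost its call with library totals (0.0686) and without ligation replicate 2, cells replicate 1 or cells replicate 2 (0.0601 to 0.0714, range over the 19 alternatives 0.00394 to 0.0714). Serpinh1, the collagen chaperone, was not called in any comparison (-0.02, 0.04 and 0.02). With library totals ligation against sham (0.17, edgeR adjusted p = 0.00303) and cells against sham (0.18, edgeR adjusted p = 0.00218) passed.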

How the data were processed

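Gene counts for 9 mouse heart libraries were used as deposited, 1 file per library: per the file headers and values they are whole-number counts per Ensembl gene, and per the submitters' processing notes the genome build is mm10. The aligner and the counting tool are not given in the sources used here, nor whether counting used strand; per the labels' protocols libraries were made with an NEBNext Ultra kit. Rows that name no gene were left out (no feature, 4.14% to 4.91% of all counted reads; ambiguous, 8.09% to 8.72%). Symbols, coordinates and exonic lengths came from GENCODE M21, which named 53274 of 53465 identifiers. The members and lists were chosen with earlier results of these data known.

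The counts were scaled by TMM, filtered with filterByExpr (13825 genes, 62 members) and tested with edgeR 4.0.16 in R 4.3.3: 1 quasi-likelihood fit of all 9 libraries with 1 mean per group, Benjamini-Hochberg adjustment over all genes tested and a threshold of 0.05. The common biological coefficient of variation was 0.0726. The script was tested on simulated data. Named by rule were the inducible list, Hspa8, Hsp90ab1, Hspa4, Hspa9, Hsp90b1, Hspd1, Hspe1, the small heat shock proteins, and per comparison the 6 members with the largest called change in each direction that had a mean of at least 1 CPM and ranges apart, plus Hsf1, Hsf2, Bag3, Stip1, Cryab, Serpinh1, Fkbp5 and Unc45b; Hspa4l, Dnajb5, Dnajc28 and Dnaja3 were added after their values were seen. Alternatives used DESeq2 1.42.0 and limma 3.58.1 (voom), other scalings and filters, a fit of 2 groups, a replicate block, fits without mitochondrially encoded genes, and fits without each library. Summing libraries of 1 header stem was chosen after seeing the data. Libraries of 1 group differed by more than counting noise (mean chi-square per gene 1.97 to 3.98), so none was treated as a repeat of the same library. Such a difference cannot show whether libraries came from the same heart.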

Additional observations from a re-analysis of the deposited data

How the results depend on the processing

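The counts of members that rose or fell kept within 1.5 times under every alternative run except library totals, which gave 32 higher and 7 lower for ligation against sham and 6 lower for cells against sham. That scaling also moved the median of the inducible members to 0.58 (ligation against sham) and 1.26 (cells against sham), and that of the constitutive members to 0.12, 0.22 (cells against sham) and 0.054 (cells against ligation). With it, changes for ligation against sham turned to 0.052 for Hspa1a, 0.18 for Hspb1, 0.0058 for Hspa8, 0.077 for Hspa9, 0.14 for Hspb2, 0.10 for Hspb6, 0.17 for Hspb8, 0.17 for Serpinh1, 0.062 for Dnajb5, 0.13 for Dnajc28 and 0.16 for Dnaja3, and for cells against ligation to -0.0038 for Hsp90b1, -0.029 for Hspb7 and -0.0071 for Hspa12b. Hspb7, at 0.00 there, was also -0.0014 with a mean of at least 1 CPM, -0.0042 by limma-voom, -0.0021 in a fit of 2 groups and -0.00034 without mitochondrially encoded genes. Hsf2 (ligation against sham) was -0.0047 in a fit of 2 groups and -0.0048 without mitochondrially encoded genes, Hspa1a was 0.043 by limma-voom, and Hspb2 (cells against sham) -0.0019 with header stems summed. The cause was not tested.

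Leaving out 1 library at a time gave 17 to 20 members higher and 9 to 11 lower for ligation against sham, 12 to 19 and 0 for cells against ligation, and 26 to 32 and 9 to 12 for cells against sham. Medians of the constitutive members ran from -0.097 to -0.036, 0.074 to 0.13 and 0.027 to 0.090, and that of the inducible members for cells against ligation from 0.63 to 0.74. Changes near 0 crossed it: for ligation against sham Hspa1a (-0.45 to 0.65), Hspb1 (-0.050 to 0.031), Hspb2 (-0.25 to 0.20), Hspb8 (-0.046 to 0.0087), Hsph1 (-0.026 to 0.081), Hsp90b1 (-0.0074 to 0.077), Hsf2 (-0.068 to 0.055), Dnaja3 (-0.064 to 0.025) and Serpinh1 (-0.041 to 0.0028). For cells against ligation these were Hspb7 (-0.027 to 0.023), Hspb2 (-0.19 to 0.27), Hspa12b (-0.021 to 0.050), Hsp90b1 (-0.035 to 0.076), Dnajb6 (-0.0041 to 0.14), Dnajc19 (-0.061 to 0.19) and Dnajc30 (-0.047 to 0.41), and for cells against sham Hspa8 (-0.058 to 0.089) and Hspb2 (-0.22 to 0.12).

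Replicate numbers did not pair the libraries: deviations of same-numbered libraries correlated at -0.10 to 0.12. With the replicate number as a block, 21 members rose and 11 fell with ligation, 16 rose and 0 fell with cells against ligation, and 33 and 10 did with cells against sham. Depth limits the lowest members: 1 library's floor of 3 counts is 0.476 to 0.534 CPM in sham, where Hspa1a stood at 1.25 to 4.78 CPM.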
